A study of Mus musculus with 394 samples.

Results

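The genes described here encode the protein components of the cytosolic ribosome of the mouse. They were taken from the deposited gene tables by name: symbols beginning with Rpl or Rps followed by a number and at most a short suffix, together with Rpsa, Rplp0, Rplp1 and Rplp2. Rpl22 was left out because it is the gene that carries the epitope tag in these mice, and pseudogene rows ending in -ps and the ribosomal S6 kinases were left out as well. This gave 87 genes of 48531 in the UMI count table and 88 of 55487 in the full-length table, the additional one being Rpl32l. Of the 87 genes, 42 encode large subunit proteins, 31 encode small subunit proteins, 3 encode the acidic stalk proteins Rplp0, Rplp1 and Rplp2, and 11 are paralogues or paralogue-like copies such as Rpl22l1, Rpl7l1, Rps27l, Rps4l and Rpl3l.

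Each ribosome holds about equal numbers of most of these proteins, so their mRNAs are made in parallel and are among the most abundant polyadenylated mRNAs of a cell. Most of them begin with a cytosine followed by a run of pyrimidines, the 5′ terminal oligopyrimidine (TOP) motif, through which mTOR signaling and the binding protein LARP1 set how much of the mRNA is on polysomes and how much is stored. In neurons, ribosomal protein mRNAs have been found in axons and dendrites as well as in the soma, and many of the genes have processed pseudogenes elsewhere in the genome whose sequence is close to that of the parent mRNA.

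The RiboTag mice carried a conditional HA tag on the large subunit protein eL22, encoded by Rpl22. In Cre+ mice (DAT IRES-Cre/wt with RiboTag+/-), Cre is expressed from the dopamine transporter locus, so the tag is placed on ribosomes of dopamine neurons, and in Cre- littermates the RiboTag allele is present and no ribosome is tagged. Every immunoprecipitate (IP) was made with an anti-HA antibody, and the Input was a small part of each lysate that was kept back before the IP. IP and Input of one mouse were sequenced both, but the labels do not say which belong together, so the tests treated the fractions as independent samples. Whole striatum came from mice of P0, P7, P14, P21, P31 and P90 and of 10 to 14 months, and the ventral tegmental area (VTA), the substantia nigra pars compacta (SNc) and the pars reticulata (SNr) at 10 to 14 months. SNr, SNc and VTA were cut from the same midbrains, and the labels do not tie the regions of a mouse to each other, so regions entered the tests as separate samples and p-values over them may be too small. All RiboTag midbrain and synaptosome samples are from 10 to 14 month animals, with both genotypes except in the full-length libraries, which are Cre+ alone. For fluorescence-activated synaptosome sorting (FASS), synaptosomes of mice aged P90 to P150 were sorted for EGFP delivered by a Cre-dependent AAV into DAT Cre-positive mice, so that infected neurons alone are labelled, or for the VGLUT1_VENUS fusion in striatum or cortex. The comparator was small particles gated from the same preparations, and sorted particles can carry other material bound to them.

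The series holds 394 samples, which gave 314 after technical repeats were summed. Total counts per sample ranged from 11405 to 1796764 UMIs in the 138 striatal samples, from 3606 to 380689 in the 60 midbrain samples, from 13072 to 299856 in the 24 sorted samples, from 1137 to 54675 in the 32 striatal synaptosome samples and from 16533 to 111750 in the 42 midbrain synaptosome samples. The 18 full-length libraries held 3059148 to 15762443 reads. The dopaminergic markers checked the labels: all 12 measured markers were higher in the Cre+ IP than in the Input of midbrain tissue in both library types, and in the sorted synaptosomes 7 of the 12 (Chrna6, Ddc, En1, Gch1, Pitx3, Ret and Slc18a2) were at 0 counts in every sample. Their summed level in FASS samples was 0.422 to 2.30 per 10000 UMIs, against 0.410 to 1.69 in small particles. In all of these bulk samples, fewer cells of a type and less RNA per cell cannot be told apart.

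The 5′ ends of several members are shown because the start of the mRNA carries the TOP motif by which these genes are usually recognised as a family. Each line gives the 10 bases before and the 20 bases from the RefSeq transcript start (GRCm38.p6) on, in the gene's own sense, with the pyrimidine run that begins with C in capitals. Rpl27a lies on the plus strand at chr7:109519185-109519214, Rps10 on the minus strand at chr17:27635225-27635254, Rps18 on the minus strand at chr17:33955646-33955675, Rps6 on the minus strand at chr4:86857348-86857377, Rplp2 on the plus strand at chr7:141447641-141447670, Rps12 on the minus strand at chr10:23787190-23787219, and the paralogues Rpl22l1 and Rpl7l1 on the plus strand at chr3:28805498-28805527 and the minus strand at chr17:46782637-46782666.
Rpl27a: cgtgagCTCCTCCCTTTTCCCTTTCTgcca
Rps10: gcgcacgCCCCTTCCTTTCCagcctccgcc
Rps18: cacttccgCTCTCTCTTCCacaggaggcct
Rps6: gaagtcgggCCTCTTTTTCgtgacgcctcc
Rplp2: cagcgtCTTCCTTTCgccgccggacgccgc
Rps12: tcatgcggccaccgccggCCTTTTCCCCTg
Rpl22l1: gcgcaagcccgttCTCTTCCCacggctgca
Rpl7l1: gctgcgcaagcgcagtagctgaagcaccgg
RefSeq start windows were found for 63 of the members, 74 windows in all. A pyrimidine run of at least 8 bases beginning with C, within 20 bases before and 40 after the annotated start, was present in 43 of the 74 windows (58.1%), against 17.2% of 32851 windows of all genes. Rpl7l1, whose protein acts in ribosome assembly, had none in its window. The letters CCGGAAG, the core bound by ETS family factors, were found on either strand of the 300-base windows in 27 of 74 (36.5%) and in 8.86% of all windows. These matches describe the letters of the windows alone.

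Together the ribosomal protein mRNAs took a few percent of all UMIs, and this share fell through the first weeks of striatal development and was lower in IPs than in Inputs at most ages. On plate BH001 P0 Inputs had a median share of 6.55% (6.10 to 7.37, n = 8), P7 Inputs 4.70% (4.54 to 4.95, n = 8), P14 Inputs 3.38% (3.22 to 3.67, n = 8) and P21 Inputs 2.62% (2.33 to 2.90, n = 8). The ranges of these 4 ages did not overlap. On plates PB003 and PB008 the P0 and P7 Input medians were 6.70% and 6.73%, and those of P14, P21, P31 and P90 were 3.54%, 3.27%, 3.25% and 4.26%, so the drop fell between P7 and P14 and P90 lay above P31 without overlap (3.96 to 4.92 against 2.64 to 3.66). The IPs of BH001 had medians of 2.89%, 2.94%, 1.59% and 1.3% from P0 to P21, and at each of these ages every IP lay below every Input of the same plates. At 10 to 14 months, present on plate PB011 alone, the Input share was 8.20% (5.07 to 8.56, n = 10) and the IP share 5.29% (3.99 to 9.07, n = 10), and the ranges overlapped. Age and plate cannot be told apart for that age.

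**Figure D1:**
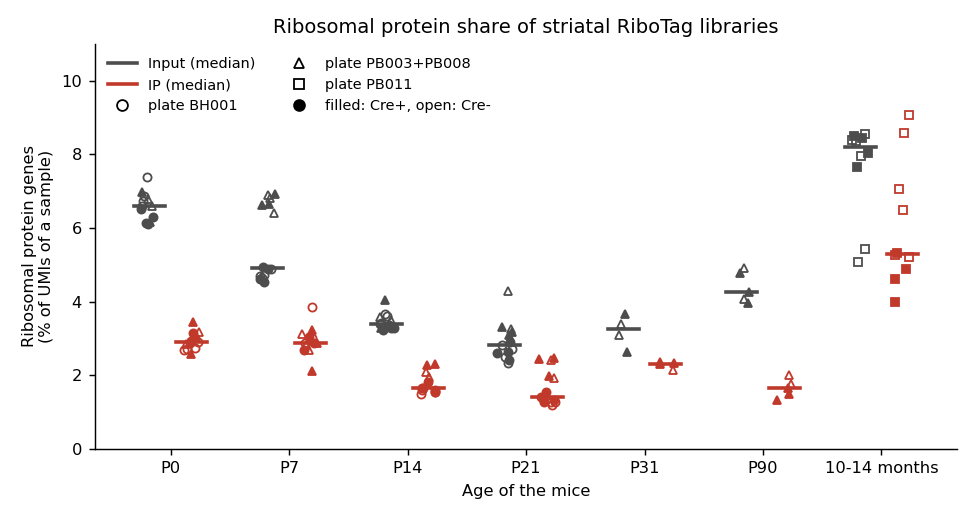
Share of all UMIs on cytosolic ribosomal protein genes (percent, y axis) in each striatal sample by age (x axis), with Inputs and IPs in separate colours, marker shape giving the plate, filled points Cre+ and open points Cre-, and bars the median. On BH001 the Input median goes from 6.55% at P0 to 2.62% at P21, and the IPs lie below the Inputs up to P21.

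Across the other tissues the order of the fractions depended on the preparation. In midbrain UMI libraries the share was 1.86 to 9.42% in Inputs (median 7.56, n = 30) and 2.96 to 9.03% in IPs (median 5.09, n = 30). In striatal synaptosomes it was 3.60 to 5.12% in Inputs (median 4.05, n = 24) and 3.00 to 4.8% in IPs (median 3.23, n = 8), and in midbrain synaptosomes every IP (2.29 to 4.41%, median 3.24, n = 14) lay below every Input (5.02 to 7.07%, median 5.99, n = 28). The direction turned in 2 preparations. FASS samples held 6.04 to 17.1% (median 11.5, n = 12) against 4.28 to 8.53% in small particles (median 6.67, n = 12), and in the full-length libraries, where the share is of reads of rRNA-depleted total RNA, IPs held 0.263 to 0.406% (median 0.287, n = 9) against 0.201 to 0.260% in Inputs (median 0.240, n = 9). Shares of the 2 library types are on different scales and are not set against each other. Full-length reads grow with transcript length, come from total RNA and were counted over exons where uniquely mapped. The part of these in the lower share was not tested.

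The counted level of many single members depended on the plate. In striatal Inputs of P0 to P21, present on both sets of plates, the pooled level on BH001 (32 samples) was set against that on PB003 and PB008 (19 samples) for the 76 members other than paralogues. The median ratio was 0.497, with single genes between 0.0174 and 2.6. Rpl9, a large subunit protein, stood at 6.76 CPM (UMIs scaled to the library total) on BH001 and 389 on the other plates, and Rps13, a small subunit protein, at 19.9 against 604. Rpl11, which with Rpl5 carries the 5S rRNA into the large subunit, stood at 40 against 466.2 CPM. Ratios under 0.1 were found for 10 members, the others being Rpl10, Rps12, Rpl21, Rpl12, Rpl27, Rps23 and Rpl19. By contrast the stalk protein Rplp0 was level, at 1119 and 1097 CPM.

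**Figure D2:**
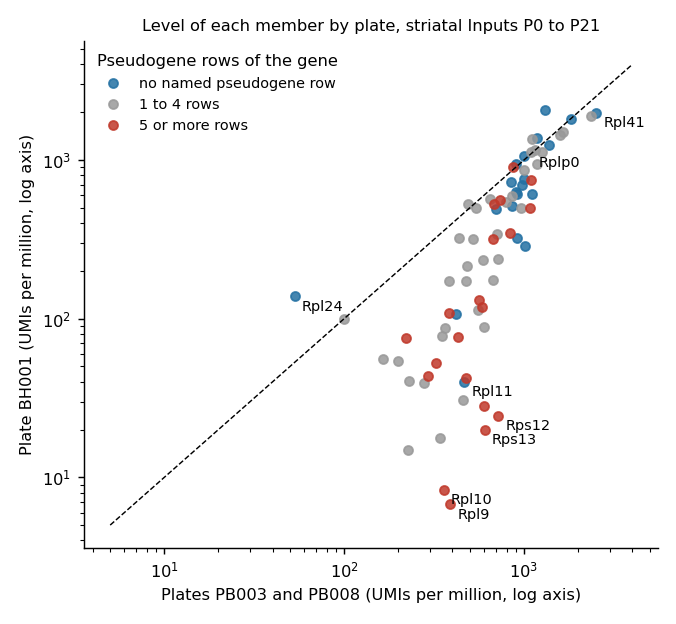
Level of each of 76 members in striatal Inputs of P0 to P21, as CPM on plates PB003 and PB008 (x axis, log scale) and on plate BH001 (y axis, log scale), coloured by the number of pseudogene rows of the gene, with a dashed line of equality. Rpl9 and Rps13 lie far off the line and Rplp0 lies on it.

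The deficit moved with the number of -ps pseudogene rows that the annotation lists for a gene. The median ratio was 0.741 over the 20 members with no such row, 0.497 over 36 members with 1 to 4 and 0.217 over 20 members with 5 or more, and Spearman's rho between the ratio and the number of rows was -0.50 over the 76 genes. Rpl11 has no -ps row, so the pattern has exceptions, and copies under other names were not counted. In the full-length Inputs the median level per length was 22.4 RPKM over the members with no pseudogene row, 3.13 over those with 1 to 4 and 4.14 over those with 5 or more, and the level per length there had a rank correlation of 0.13 with the UMI level in midbrain Inputs over 76 genes. In the full-length libraries only uniquely mapped reads over exons were counted, per the study's methods, so that reads shared with a copy did not enter. How the UMI libraries treated such reads is not given in the sources used here, and the part of this in the levels was not tested. Single members with many copies are therefore uncertain in level.

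In striatum most members were lower in IPs than in Inputs, in both genotypes. In the comparison over all ages, 70 of 84 tested members were lower and 0 higher, where 11.4% of all genes were called lower and 24.8% higher. The median log2 fold change was -0.67 over the members and 0.12 over all genes. By role, 36 of 42 large subunit genes, 29 of 31 small subunit genes, 3 of 3 stalk genes and 2 of 8 paralogues were lower.

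Rpl26, a large subunit protein, had 30.7 to 124 (median 62.3) normalised counts in 70 Inputs and 7.69 to 120.1 (median 25.8) in 68 IPs. The ranges overlapped across ages, and the log2 difference IP minus Input was -1.16 (SE 0.067, adjusted p = 6.0e-36). The small subunit protein Rps24 had 38.6 to 149.7 (median 76.0) and 14.1 to 138 (median 34.8), with a log2 difference of -1.06 (SE 0.070, adjusted p = 1.8e-30). Rpl39, a very small protein of the exit tunnel, followed with 9.81 to 67.9 (median 29.8) and 0 to 57.4 (median 11.5), a log2 difference of -1.18 (SE 0.088, adjusted p = 5.8e-26). Some IP samples of each gene lay at high values inside the Input range. Rps12 had the most negative log2 difference, -1.59 (SE 0.33, adjusted p = 2.2e-05), and was at 0 counts in 18 IPs.

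The stalk genes, whose proteins recruit the translational GTPases, were lower as well, Rplp0 and Rplp1 by less than the median member. Rplp0 had 19.2 to 232 (median 50.5) in Inputs and 11.3 to 105 (median 39.9) in IPs, a log2 difference of -0.38, with -0.54 for Rplp1 and -0.74 for Rplp2, all of which passed the test. Rpl11 (-0.82), Rpl5 (-0.41), Rps6, the substrate of the S6 kinases (-0.86), Rpl38 (-0.47) and Rpl41 (-0.65) were lower too. Of the paralogues, Rpl22l1, the paralogue of the tagged protein, was lower at -0.90 (SE 0.076, adjusted p = 1.1e-21), and Rps27l, a p53 target gene, at -0.42 (SE 0.12, adjusted p = 0.0034). Rpsa, the laminin receptor protein of the small subunit, had 9.65 to 98.9 (median 31.7) and 8.29 to 128 (median 34.8), and its difference of 0.07 (SE 0.11, adjusted p = 0.70) did not pass, with a value of -0.43 under TMMwsp scaling. Rps3a3 had the highest value of the tested members, 0.08 (SE 0.27, adjusted p = 0.86), and Rpl7l1 stood at -0.11 (SE 0.15, adjusted p = 0.63).

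The same direction was present without the tag. The median difference over the 84 members was -0.61 in Cre- mice and -0.79 in Cre+ mice, against 0.09 and 0.15 over all genes, and 78 members were negative in Cre- and 83 in Cre+. In the test of the difference between genotypes, 0 of 84 members passed edgeR's quasi-likelihood test, and 3 had an unadjusted p below 0.05, where 0% of 19334 genes were called and DESeq2 called 0 members, and 897 had an unadjusted p below 0.05. The marker lists that follow are from the comparison over Cre+ and Cre- mice together. Dopaminergic markers were higher in striatal IPs for 10 of 11. Their summed level was 0.510 to 25.9 per 10000 UMIs (median 2.37) against 0.412 to 2.33 in Inputs (median 1.15). Of 8 nuclear RNAs, 5 were lower in IPs, at 4.71 to 67.5 per 10000 (median 17.8) against 11.9 to 135 (median 60.6). Endothelial markers were higher for 7 of 8, at 0 to 6.21 per 10000 in IPs (median 1.86) against 0 to 3.70 (median 1.49), among them Flt1 (2.19) and Pltp (1.58). All 5 red blood cell markers were higher too, at 2.06 to 65.4 (median 18.6) against 3.48 to 40.5 (median 12.8), and astrocyte and microglia markers were mixed, with 6 of 12 and 4 of 10 higher and 2 and 1 lower. The part of these lists in the result was not tested.

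The size of the IP difference varied with age for some members. In the F test over all age terms of the difference, 15 of 84 members passed (6.31% of all genes did), among them all 3 stalk genes, Rps21 (adjusted p = 6.7e-06), Rplp1 (adjusted p = 1.3e-05), Rpl41 (adjusted p = 5.0e-05) and Rpl22l1 (adjusted p = 0.0028). Over members, P0 had a median difference of -1.03, P7 of -0.75, P14 of -0.84 and P21 of -0.86, followed by -0.40 for P31, -0.75 for P90 and -0.18 for 10 to 14 months, where the median over all genes lay between -0.17 (P90) and 0.18 (P14). Rplp1 had 139.6 to 205 (median 164) normalised counts in P0 Inputs and 47.3 to 117 (median 83.6) in P0 IPs of BH001, which did not overlap. At 10 to 14 months Rplp1 had 177 to 221 (median 206) in Inputs and 155 to 434 (median 249) in IPs, with the IP median above the Input median. That age lies on a plate of its own, so the part of the plate cannot be told apart from that of age. With the plate as a covariate 31 members passed, and within plates 27 passed on BH001 and 4 on PB003 and PB008. Shares of all genes in these fits are not reported here, so the counts have no background beside them.

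Over postnatal age, most members were at a lower level in striatum at P21 than at P0 on both sets of plates. A single F test over all ages and plates called 82 of 84 members (59.0% of all genes), with 27 positive and 55 negative signs of the P90 term, and in that fit plates and ages overlap in part. Ages were therefore also compared within plates, with Inputs and IPs in one fit. On BH001, 76 of 82 members were lower at P21 than at P0 and 0 higher (14.6% of all genes lower, 21% higher), with a median log2 difference of -1.11 against 0.11 over all genes. On PB003 and PB008, 68 of 82 were lower and 0 higher (4.09% and 4.21% of all genes), with a median of -0.96 against 0.16. The sets of plates hold samples with different labels, and 67 members were lower on both, 9 on BH001 alone and 1 on PB003 and PB008 alone. How many of all genes were lower on both sets is not reported here.

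Rplp0 had one of the clearest drops. In Inputs of BH001 it had 141 to 232 (median 169) normalised counts at P0 and 31.1 to 40.7 (median 36.7) at P21, and on PB003 and PB008 132 to 169 (median 152) and 24.7 to 36.8 (median 32.8). The ages did not overlap on either set of plates, and the log2 differences over both fractions were -1.96 (SE 0.094, adjusted p = 7.1e-45) and -1.97 (SE 0.21, adjusted p = 3.7e-13). Rps24 fell from a range of 100.1 to 149.7 (median 118) to 38.6 to 57.2 (median 50.0) in BH001 Inputs. Its log2 differences were -1.17 (SE 0.087, adjusted p = 3.0e-26) and -0.96 (SE 0.18, adjusted p = 5.1e-05).

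Rpl11, whose level on BH001 was far below that on the other plates, had the same direction on both, with log2 differences of -1.38 (SE 0.26, adjusted p = 2.8e-06) and -0.99 (SE 0.20, adjusted p = 1.1e-04). A smaller group did not pass on both sets of plates. Rps29 gave -0.63 (SE 0.093, adjusted p = 3.1e-09) on BH001 and -0.55 (SE 0.20, adjusted p = 0.071) on PB003 and PB008, Rpl22l1 gave -0.56 (SE 0.091, adjusted p = 7.0e-08) and -0.36 (SE 0.22, adjusted p = 0.35), and Rps27l gave -0.88 (SE 0.17, adjusted p = 4.3e-06) and -0.59 (SE 0.35, adjusted p = 0.35). Rpl9 passed on neither, with -0.39 (SE 0.51, adjusted p = 0.60) and -0.30 (SE 0.23, adjusted p = 0.50).

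The lower level was also present at P90. On PB003 and PB008, 62 of 82 members were lower at P90 than at P0 and 0 higher (6.02% and 6.53% of all genes), with a median of -0.88 against 0.12. Of the 27 members with a positive P90 sign in the fit over all plates, 21 were lower in this comparison within plates, 0 were higher and 6 did not pass. P21 and P90 are compared with the same P0 samples. Fewer members passed between P0 and P7, where 34 members were lower and 4 higher on BH001 (6.28% and 10.2% of all genes), and 4 were lower and 0 higher on PB003 and PB008 (0.970% and 0.464%).

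Split by fraction, P21 against P0 in Inputs alone gave 77 of 82 members lower on BH001 (13.2% of all genes) and 72 of 82 on PB003 and PB008 (5.71%). In IPs alone, 46 of 82 were lower on BH001 (8.15%). On PB003 and PB008, 0 of 81 passed edgeR's quasi-likelihood test in IPs alone (0.458% of 7418 genes were called lower), and 17 members had an unadjusted p below 0.05. The difference between the fractions in this step was not tested. Rplp0 in BH001 IPs had 72.3 to 97.1 (median 91.6) normalised counts at P0 and 17.8 to 32.4 (median 23.8) at P21, again without overlap.

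Other genes of translation moved in part with the members between P0 and P21. Of 14 further genes with TOP mRNAs that serve the ribosome, such as Eef1a1 and Tpt1, 11 were lower and 0 higher on each set of plates. Of 42 translation factors, 28 were lower and 3 higher on BH001, and 12 were lower and 1 higher on PB003 and PB008. Of 30 ribosome assembly factors, 7 were lower and 1 higher on BH001 and 1 lower on the others. The cell makeup moved over the same step: 8 of 8 immature neuron markers were lower on both sets, and on BH001 12 of 12 astrocyte, 10 of 10 oligodendrocyte and 9 of 10 spiny neuron markers were higher. Their part in the fall of the members was not tested.

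In the adult midbrain UMI libraries the members that passed were mostly lower in IPs. Whether Cre+ and Cre- mice differed in their number depended on the scaling, and the Cre- number also on depth. With 12 Cre+ IPs and 12 Inputs over SNc, VTA and SNr, 51 of 84 members were lower and 1 higher (7.17% and 5.36% of all genes), with a median log2 difference of -0.52 against -0.12 over all genes. With 18 Cre- IPs and 18 Inputs, 15 were lower and 5 higher (4.18% and 9.20%), with a median of -0.15 against 0.11. The difference between the genotypes itself passed for 24 members (8.17% of all genes), 23 of them more negative in Cre+ (5.38% of all genes) and 1 more positive (2.79%), with a median of -0.38 over members and -0.29 over all genes, a gap of -0.086. Under TMMwsp, which shifted the median of all genes by -0.40 in the Cre- comparison, 57 members were lower in Cre+ IPs and 55 in Cre- IPs, and 6 showed the more negative Cre+ difference. Under total counts the numbers were 47, 44 and 10. For these scalings the shares of all genes are not reported here, so the counts have no background beside them. Without samples under 20000 UMIs more members were lower in Cre- IPs. The Cre- VTA Inputs include a sample of 3606 UMIs.

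The small subunit proteins Rps28 and Rps29 led the change. Rps28 had 75.4 to 120.5 (median 94.7) normalised counts in Cre+ Inputs and 14.7 to 55.8 (median 31.9) in Cre+ IPs, with no overlap and a log2 difference of -1.58 (SE 0.15, adjusted p = 3.0e-25). In Cre- mice Rps28 had 45.9 to 113 (median 75.5) and 20.1 to 109 (median 49.0), overlapping ranges with a log2 difference of -0.70 (SE 0.12, adjusted p = 9.6e-07). Rps29 had 176 to 306 (median 198) in Cre+ Inputs and 49.9 to 111 (median 74.0) in Cre+ IPs, also without overlap, with a log2 difference of -1.48 (SE 0.14, adjusted p = 4.0e-23). Rps12, another small subunit protein, likewise did not overlap, with 42.6 to 79.9 (median 54.5) against 12.4 to 31.1 (median 18.2) and a log2 difference of -1.52 (SE 0.15, adjusted p = 7.0e-21).

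The stalk gene Rplp1 differed between the genotypes. In Cre+ mice it had 93.0 to 193 (median 109) in Inputs and 38.2 to 72.3 (median 58.5) in IPs, and in Cre- mice 30.6 to 157 (median 104) and 53.1 to 155 (median 103). The Cre+ fractions did not overlap and the Cre- fractions did (Cre- log2 difference -0.10 (SE 0.12, adjusted p = 0.67), with -0.51 and adjusted p = 0.0026 under TMMwsp and -0.34 and adjusted p = 0.039 under total counts), and the difference between genotypes was -1.03 (SE 0.18, adjusted p = 1.8e-06). Rps27 had the smallest p of that test, at -1.37 (SE 0.19, adjusted p = 6.5e-11): it was at 47.8 to 94.4 (median 62.4) and 20.1 to 49.2 (median 30.7) in Cre+ Inputs and IPs, and at 30.6 to 89.4 (median 58.7) and 31.7 to 124 (median 80.3) in Cre-. Rps23, at -1.04 (SE 0.19, adjusted p = 4.8e-06), was lower in Cre+ IPs and higher in Cre- IPs, where its difference was -0.0079 under TMMwsp. Rpl6 was the single member with a more positive difference in Cre+ mice, 0.75 (SE 0.20, adjusted p = 0.0051).

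Of the other members followed throughout, Rplp0 (-0.56), Rplp2 (-0.43), Rpsa (-0.52), Rpl38 (-0.48) and Rpl41 (-0.57) were lower in Cre+ IPs. Rps6 (-0.05, SE 0.15, adjusted p = 1.00), Rpl22l1 (-0.27, SE 0.15, adjusted p = 0.25) and Rps27l (0.07, SE 0.35, adjusted p = 1.00) did not pass. Rps4l, a low paralogue, was the single member higher in Cre+ IPs, with 0 to 5.99 (median 2.11) against 1.49 to 9.92 (median 3.52) and a log2 difference of 0.96 (SE 0.34, adjusted p = 0.042). In Cre- IPs the clearest rise was that of Rpl9, with 0 to 62.9 (median 37.9) in Inputs and 43.3 to 104 (median 59.6) in IPs and a log2 difference of 0.69 (SE 0.12, adjusted p = 1.1e-06), which was 0.25 (adjusted p = 0.22) under TMMwsp. By region, the median difference over members in Cre+ mice was -0.27 in SNc, -0.57 in VTA and -0.77 in SNr, where the medians over all genes were -0.21, 0 and -0.0018. In Cre- mice the members stood at -0.11, 0.16 and -0.49 and all genes at 0.05, 0.14 and 0.25, so that in SNc the members lay closer to the typical gene in Cre+ than in Cre-, and in SNr they lay about as far below it in both. These medians by region were not tested.

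Markers of other cells moved in the same libraries. In Cre+ midbrain IPs 12 of 12 dopaminergic markers were higher, and 11 of 12 astrocyte, 10 of 10 oligodendrocyte and 8 of 10 microglia and 4 of 5 red blood cell markers were lower. In Cre- IPs 6 of 8 endothelial markers were higher. Over both genotypes the summed oligodendrocyte level was 6.96 to 89.6 per 10000 UMIs in IPs (median 47.4) and 55.9 to 180 in Inputs (median 109). In the Cre+ comparison 12 of 75 mitochondrial ribosomal protein genes, whose products form a separate ribosome inside mitochondria, were higher and 1 lower, and 3 of 42 translation factors were higher and 3 lower. The part of the markers in the members' difference was not tested.

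**Figure D3:**
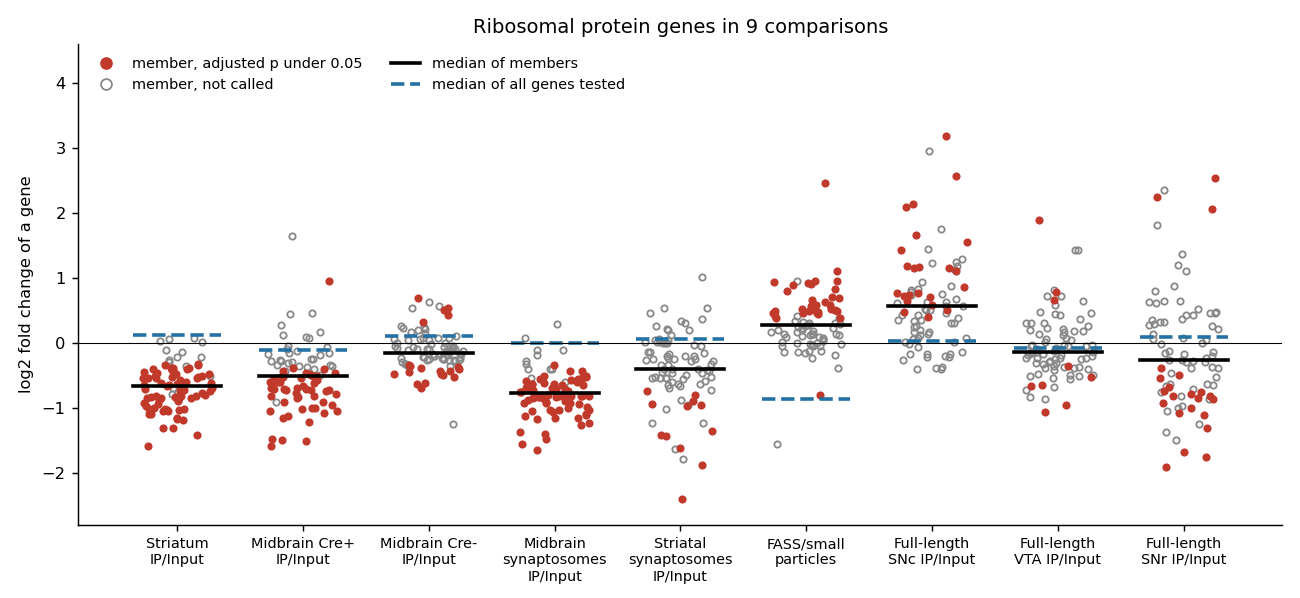
Log2 fold change (y axis) of every tested member in 9 comparisons (x axis), with red points for members that passed the test and open points for those that did not, a black line at the median of the members and a blue dashed line at the median of all genes. The member median lies below that of all genes in the UMI IP comparisons of striatum, midbrain and synaptosomes (-0.67 in striatum) and above it in SNc full-length IPs (0.56) and in FASS samples (0.28).

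In the full-length libraries the direction depended on the midbrain region, with 3 Cre+ IPs and 3 Inputs in each. In SNc 23 of 83 members were higher in IPs and 0 lower (15.4% and 16.3% of all genes), with a median log2 difference of 0.56 against 0.02 over all genes. In VTA 3 were higher and 6 lower (14.3% and 19.7%), with a median of -0.15 against -0.07. In SNr 3 were higher and 19 lower (17.9% and 16.9%), with a median of -0.27 against 0.08. All 3 IPs lay above all 3 Inputs for 40 of the 83 members in SNc, 9 in VTA and 5 in SNr, where 21.3%, 23.5% and 19.8% of all genes did so. All 3 IPs lay below all 3 Inputs for 1, 18 and 27 members, against 25.3%, 30.2% and 22.5% of all genes. Scaling by total counts raised the median of all genes by 0.32 in VTA and 0.40 in SNr. It turned the member medians positive in both (0.22 and 0.13). The direction in SNr thus holds relative to the typical gene of these libraries and not for the share of reads. In VTA the member median lay close to that of all genes under the main scaling (-0.15 against -0.07). The SNc count was 14 without the third SNc IP and 15 without the first or the second SNc Input, and the 6 lower in VTA became 3 without the first VTA IP or the first VTA Input.

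In SNc the clearest were large subunit genes. Rpl7 had 590.2, 564 and 569.9 normalised counts in the Inputs and 909, 1125 and 1084 in the IPs, a log2 difference of 0.85 (SE 0.13, adjusted p = 1.6e-05). Rpl4 had 2296, 2450.2 and 2335 against 3119, 4036 and 4558, a log2 difference of 0.73 (SE 0.11, adjusted p = 2.2e-05). The small subunit gene Rps9 had 518, 544 and 539.7 against 743, 925 and 1059, a log2 difference of 0.77 (SE 0.14, adjusted p = 1.1e-04). In each of these every IP exceeded every Input. The paralogue Rpl22l1 also separated, with 66.9, 72.4 and 76.8 against 119, 127 and 220.5 and a log2 difference of 1.11 (SE 0.32, adjusted p = 0.0088), and Rpl41, which encodes the smallest ribosomal protein, had 247, 259 and 269 against 291, 433 and 539 and 0.70 (SE 0.20, adjusted p = 0.0093). Rpl9 had the largest positive value, 3.19 (SE 1.18, adjusted p = 0.041), from low counts of 0.539, 4.26 and 5.43 and 14.7, 35.6 and 42.5. No stalk gene passed in SNc: Rplp1 had 1083, 1077 and 1115 in Inputs and 764, 1045 and 1101 in IPs (log2 difference -0.17, SE 0.12, adjusted p = 0.30), and Rplp0 stood at 0.30 (SE 0.14, adjusted p = 0.11).

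In SNr the stalk gene Rplp1 was lower in IPs. It had 1859, 1738 and 1733 normalised counts in Inputs and 694, 696 and 769 in IPs, a log2 difference of -1.31 (SE 0.13, adjusted p = 1.3e-08). Rps21 had 415, 465.8 and 446 against 87.0, 125 and 203 (log2 difference -1.68, SE 0.22, adjusted p = 1.6e-06). Every SNr IP lay below every Input for both genes. Rpl41, higher in SNc IPs, was lower here, with 529.6, 480.1 and 545 against 209.99, 246 and 359 (log2 difference -0.93, SE 0.21, adjusted p = 9.2e-04). Rps27a (2.06), which encodes a ubiquitin fusion, Rpl27 (2.24) and Rps13 (2.54) were the members higher in SNr IPs.

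VTA had the fewest calls of the 3 regions. Rplp1 had 1211, 1139 and 1184 in Inputs and 595, 659 and 557 in IPs (log2 difference -0.96, SE 0.12, adjusted p = 1.2e-06). Rps19 had 276, 236 and 221 against 136, 118 and 92.7 (log2 difference -1.06, SE 0.29, adjusted p = 0.0056), and Rpsa had 975, 986 and 859 against 618, 649.7 and 536 (log2 difference -0.64, SE 0.17, adjusted p = 0.0047), all without overlap. Rps14 and Rps15 were among the others that were lower. Rps27a, with 16.1, 20.2 and 20.8 against 88.7, 91.1 and 36.9 (log2 difference 1.89, SE 0.51, adjusted p = 0.0053), and the assembly paralogue Rpl7l1, with 244, 184 and 206 against 337, 262 and 387 (log2 difference 0.66, SE 0.25, adjusted p = 0.043), were higher, together with Rps4l.

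**Figure D4:**
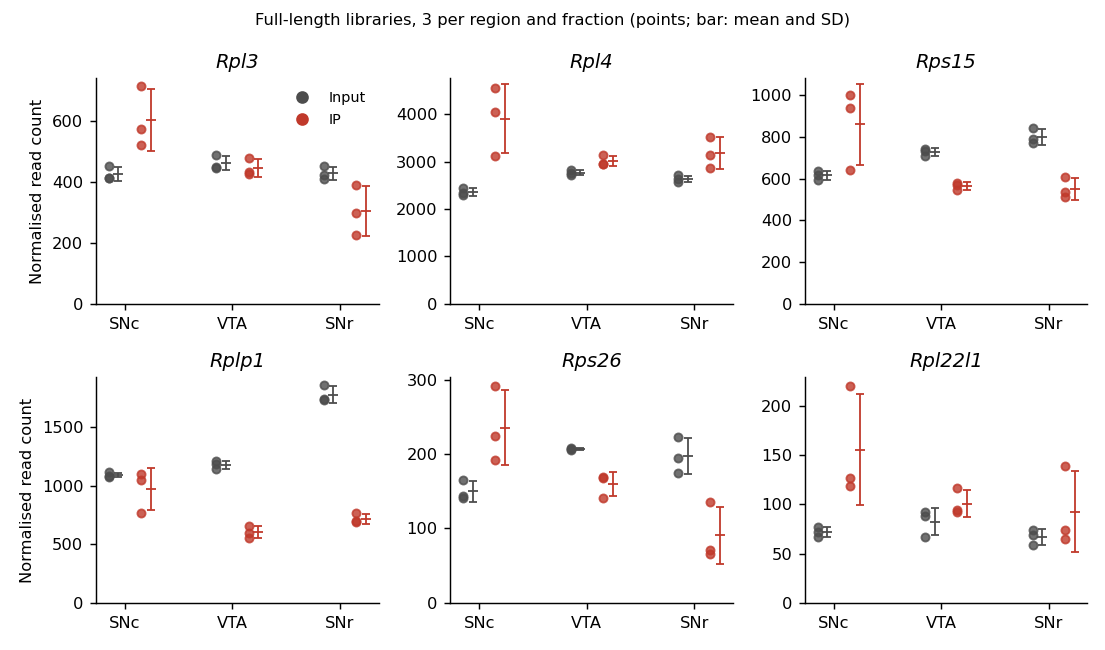
Normalised counts (y axis) of 6 members in full-length Inputs and IPs of SNc, VTA and SNr (x axis), each point a sample (n = 3), with the mean and SD. Rpl4 lies higher in SNc IPs than in SNc Inputs, and Rplp1 lies lower in IPs than in Inputs of VTA and SNr and overlaps in SNc.

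The difference between regions was tested directly. The F test of region by fraction passed for 20 of 83 members (12.4% of all genes), and for all 20 the SNr-minus-SNc term was negative, where 6.01% of all genes passed with a negative and 6.43% with a positive term. They included Rplp1 (adjusted p = 2.7e-04) and Rpl41 (adjusted p = 0.0011), and the median of that term was -0.75 over members and 0.03 over all genes. Among the IPs alone, 23 of 83 members were lower in SNr than in SNc and 0 higher (7.44% and 7.55% of all genes). In VTA against SNc IPs, 9 of 83 were lower in VTA and 0 higher (12.1% and 6.61%). Members were thus lower in VTA no more often than all genes. The SNc contrasts share the SNc IPs, in which the member share was 0.291, 0.405 and 0.406%. Between SNr and VTA IPs 6 members were lower in SNr and 1 higher (7.07% and 16.4%), so members were lower about as often as all genes. With few samples these counts moved: the SNr count against SNc was 13 and 14 without the second and the third SNc IP, and the VTA count was 21, 3 and 4 without the first, the second and the third SNc IP, 14 without the third SNr IP, and 5 and 4 without the second and the third VTA IP. The SNr count against VTA was 2 without the first VTA IP, and the F test count was 13 without the second SNc IP or the first SNc Input. In fits of the 2 compared groups alone, with 6 samples each, the 3 counts were 3 for SNr against SNc, 3 for VTA against SNc and 0 for SNr against VTA. The shares of all genes in these fits and without single samples are not reported here.

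Rpl29, a large subunit protein, had 400.1, 607 and 681 normalised counts in SNc IPs, 332, 208 and 258 in VTA IPs and 251.01, 188 and 239.6 in SNr IPs. SNc lay above both others, with log2 differences of -1.31 (SE 0.20, adjusted p = 1.0e-04) for SNr and -1.07 (SE 0.19, adjusted p = 3.1e-04) for VTA. Rpl3, which lies near the peptidyl transferase centre, had 519.7, 714 and 572 in SNc, 478, 432 and 425 in VTA and 299, 227 and 390.04 in SNr IPs, with -0.98 (SE 0.17, adjusted p = 3.4e-04) for SNr against SNc and -0.55 (SE 0.17, adjusted p = 0.020) for SNr against VTA.

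The Inputs of the regions differed for 6 members or fewer in the fit over all 18 libraries. The number depended on which samples were fitted. Between VTA and SNc Inputs 0 of 83 members passed edgeR's quasi-likelihood test or DESeq2, and 2 had an unadjusted p below 0.05 in the former (0.139% and 0.325% of all genes were called higher and lower). Between SNr and SNc Inputs 6 members were higher in SNr and 0 lower (2.62% and 4.44%), among them Rplp1 (0.70, SE 0.12, adjusted p = 4.0e-04), Rpl41 (1.00, SE 0.20, adjusted p = 0.0019), Rps9 (0.60, SE 0.14, adjusted p = 0.0061) and Rplp0 (0.55, SE 0.14, adjusted p = 0.015). The count was 3 without the first or the third SNc Input or without any one of the SNr Inputs. In fits of the 2 compared groups alone, 6 of 80 members were higher in VTA than in SNc Inputs and 0 lower. For SNr against SNc Inputs 19 of 79 were higher and 1 lower. Shares of all genes in these fits are not reported here, so the counts have no background beside them.

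Other gene groups and markers of the full-length libraries stood as follows. Mitochondrial ribosomal protein genes were higher in IPs in every region, 47 of 76 in SNc, 24 in VTA and 22 in SNr, with 0 lower in each. Translation factors were higher for 22, 12 and 18 of 42 and lower for 2, 4 and 6, and assembly factors for 15, 10 and 14 of 30, with 0, 1 and 0 lower. The summed level of nuclear RNAs was 73.6 to 98.2 per 10000 reads in Inputs (median 80.1) and 3.30 to 26 in IPs (median 12.5), without overlap. Astrocyte markers were lower for 8, 12 and 11 of 12 and all 10 oligodendrocyte markers were lower in each region. The part of these in the members' values was not tested.

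The SNc IPs of the 2 library types gave different member medians relative to their Inputs. In the UMI libraries the median SNc difference in Cre+ mice was -0.27, close to the -0.21 over all genes, and in the full-length libraries it was 0.56 against 0.02. The protocols differ in priming, depth, the RNA measured and the plate, and may differ in how reads shared with copies were counted. These cannot be told apart here. Member levels in midbrain Inputs of the 2 library types had a rank correlation of 0.13 over 76 genes.

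In FASS samples, members were more abundant than in small particles, while the typical gene was lower. With 12 FASS and 12 small particle samples over both mouse lines, 32 of 82 members were higher and 1 lower (2.28% and 23.4% of all genes, 25.7% in either direction), with a median log2 difference of 0.28 against -0.86 over all genes. FASS samples held 13072 to 39742 UMIs and small particles, with repeats summed, 76117 to 299856, without overlap. Depth therefore went with fraction, and its part in the median over all genes was not tested. The member share was higher in FASS in 11 of 12 same-numbered pairs of the study's sample sheet. The count depended on scaling: 11 members were higher under TMMwsp and 61 under total counts. The median over members was 0.07 and 0.77 under these, with the median of all genes shifted by -0.13 and 0.43. How many of all genes were called under these scalings is not reported here, so these counts have no background beside them.

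The clearest were small subunit genes. Rps15 had 70.5 to 116 (median 86.2) normalised counts in small particles and 109.8 to 245 (median 156) in FASS, higher in 12 of 12 pairs, with a log2 difference of 0.89 (SE 0.15, adjusted p = 2.5e-06). Rps19, which is mutated in Diamond-Blackfan anaemia, had 46.5 to 68.1 (median 52.4) and 86.8 to 127 (median 99.4), without overlap and higher in 12 of 12 pairs, with a log2 difference of 0.90 (SE 0.15, adjusted p = 3.0e-06). Rps2, at the entry of the mRNA channel, had 31.1 to 50.5 (median 35.9) and 29.6 to 103 (median 68.6), higher in 11 of 12 pairs, with 0.94 (SE 0.17, adjusted p = 1.3e-05). Only Rps19 of these kept the groups fully apart. Of the large subunit, Rpl11 (0.58, SE 0.16, adjusted p = 0.0043), Rpl38 (0.41, SE 0.14, adjusted p = 0.025) and Rpl41 (0.39, SE 0.14, adjusted p = 0.029) were higher.

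The members did not all follow. Rpl5, the partner of Rpl11 on the 5S rRNA, was the single member lower in FASS, with 6.81 to 22.3 (median 13.5) in small particles and 0 to 13.1 (median 7.79) in FASS, lower in 11 of 12 pairs (-0.80, SE 0.26, adjusted p = 0.017). The stalk genes split: Rplp0 was higher, 16.5 to 30.6 (median 22.2) against 14.9 to 57.5 (median 33.5), a log2 difference of 0.53 (SE 0.18, adjusted p = 0.028), while Rplp1 had 207 to 318 (median 254) against 211 to 297 (median 252) and Rplp2 stood at 0.23 (SE 0.16, adjusted p = 0.28). The Rplp1 difference was -0.01 (SE 0.13, adjusted p = 0.97), and it was 0.47 when libraries were scaled by total counts. Rpsa had 32 to 46.7 (median 36.2) and 25.5 to 49.7 (median 40), higher in 6 of 12 pairs and not past the test. Rps3a3, near 0 counts, had the highest value (2.46, SE 0.60, adjusted p = 0.0014), and Rps4l the lowest (-1.56, SE 0.88, adjusted p = 0.19).

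**Figure D5:**
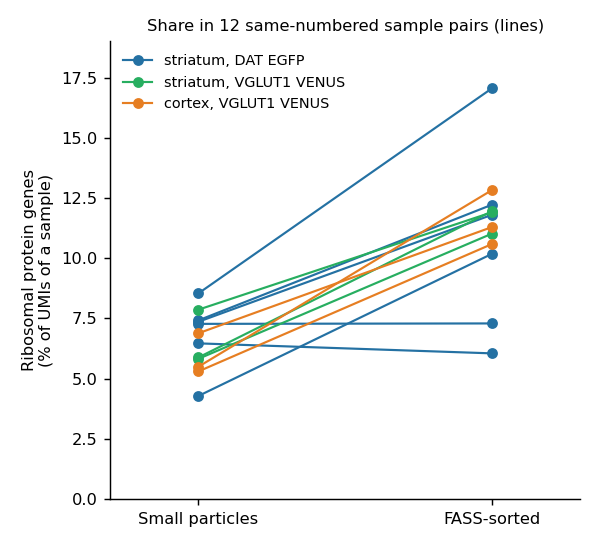
Share of all UMIs on ribosomal protein genes (percent, y axis) in small particles and FASS samples (x axis), lines joining same-numbered samples, in DAT Cre-positive EGFP striatum, VGLUT1_VENUS striatum and VGLUT1_VENUS cortex. The share is higher in FASS in 11 of 12 pairs, from a median of 6.67% to 11.5%.

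By sorted population, the median FASS difference over members was 0.26 in DAT EGFP striatum (n = 6), 0.25 in VGLUT1_VENUS striatum (n = 3) and 0.40 in VGLUT1_VENUS cortex (n = 3), with -0.91, -0.98 and -0.99 over all genes. In the test of the difference by line and region 0 of 82 members passed edgeR's quasi-likelihood test or DESeq2 and 1 had an unadjusted p below 0.05 in the former, where 5 of 11001 genes (0.0455%) were called. Of other lists, 5 of 73 mitochondrial ribosomal protein genes were higher and 1 lower, 4 of 42 translation factors were higher and 7 lower, and 6 assembly factors were lower and 0 higher. Microglia markers were at a summed 52.9 to 127 per 10000 UMIs in FASS (median 62.7) and 34.4 to 56.7 in small particles (median 42.4), while 5 of the single microglia markers were lower in the test. Astrocyte markers were at 118 to 219 (median 154) and 119 to 191 (median 157). Pseudogene rows took 0.214 to 0.647% of UMIs in FASS and 0.120 to 0.276% in small particles. The part of these was not tested.

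In RiboTag IPs of synaptosomes the members that passed were lower than in Inputs, a small part of the members in striatum and most of them in midbrain. In striatal synaptosomes (8 IPs and 24 Inputs) 12 of 83 members were lower and 0 higher (6.17% and 1.6% of all genes), with a median of -0.40 against 0.06, and 6 were lower under TMMwsp. In midbrain synaptosomes (14 IPs and 28 Inputs) 70 of 82 were lower and 0 higher (5.87% and 6.84%), with a median of -0.78 against 0.00, and all scalings tried gave 73 or 74 lower. The shares of all genes under the other scalings are not reported here. The Inputs outnumber the IPs in both preparations, so some Inputs share a mouse. The labels do not say which, each Input was counted as a sample, and these p-values may be too small.

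Rps28, Rps29 and Rps27 led in striatal synaptosomes. Rps28 had 6.07 to 27.7 (median 16.9) normalised counts in Inputs and 3.91 to 10.1 (median 4.52) in IPs, a log2 difference of -1.63 (SE 0.23, adjusted p = 3.1e-10). Rps29 had 0 to 46.3 (median 27.4) and 6.05 to 14.4 (median 11.4), a log2 difference of -1.43 (SE 0.20, adjusted p = 3.3e-10), and Rps27 had 0 to 26.7 (median 15.8) and 4.07 to 8.02 (median 5.83), a log2 difference of -1.41 (SE 0.23, adjusted p = 8.1e-08). The ranges overlapped, and the lowest Input was at 0 for Rps29 and Rps27. Rpl38 (-0.96) and Rpl41 (-0.80) were lower, and Rpl24 had the most negative value (-2.40, SE 0.46, adjusted p = 1.7e-05) from few counts. No stalk gene passed: Rplp0 stood at 0.37 (SE 0.23, adjusted p = 0.42), Rplp1 at -0.23 (SE 0.18, adjusted p = 0.58) and Rplp2 at -0.34 (SE 0.23, adjusted p = 0.49). Pseudogene rows took 1.10 to 2.03% of UMIs in these Inputs and 0.124 to 0.529% in the IPs, without overlap. When each member was summed with its pseudogene rows, an alternative chosen after seeing the data, 35 members were lower. Of the dopaminergic markers, En1 alone was at 0 counts in every striatal synaptosome Input, and each marker was counted in the IPs. The source of these marker counts, and their part in the members' difference, was not tested.

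In midbrain synaptosomes Rps29 had 97.4 to 211 (median 151) in Inputs and 15.3 to 70.6 (median 50.4) in IPs, a log2 difference of -1.65 (SE 0.12, adjusted p = 4.6e-21). Rps28 had 37.5 to 94.2 (median 72.6) and 13 to 38.7 (median 22.3), a log2 difference of -1.56 (SE 0.13, adjusted p = 4.8e-18), and the stalk gene Rplp1 had 80.4 to 131 (median 104) and 36.9 to 67.5 (median 49.1), a log2 difference of -1.03 (SE 0.096, adjusted p = 9.4e-16). Rps29 and Rplp1 were fully separated, and the Rps28 ranges overlapped at their edges. Rplp0 (-0.80, SE 0.13, adjusted p = 8.8e-07) and Rplp2 (-0.76, SE 0.12, adjusted p = 5.4e-07) were lower too. By role 35 large subunit, 29 small subunit and 3 stalk genes were lower, and so were 3 of 6 paralogues. Rpl22l1 fell by less than most, -0.44 (SE 0.11, adjusted p = 0.0034), and Rps27l (0.29, SE 0.24, adjusted p = 0.52) and Rpl5 (-0.55, SE 0.20, adjusted p = 0.054) did not pass.

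The midbrain synaptosome deficit was also found in Cre- mice, with a median of -0.85 in Cre- and -0.76 in Cre+, against -0.06 and 0.00 over all genes. The difference between genotypes passed for Rpl31 alone, 0.92 (SE 0.26, adjusted p = 0.046), more positive in Cre+ (0.37% of all genes higher, 0.664% lower). It was lost when no filter on low counts was used, under total counts and without samples under 20000 UMIs. In these libraries 11 of 12 dopaminergic markers were higher in IPs, at 41.9 to 114 per 10000 UMIs (median 69.6) against 18.8 to 39.4 (median 25.5), and 11 of 12 astrocyte, 10 of 10 oligodendrocyte and 7 of 10 microglia markers were lower. Of 75 mitochondrial ribosomal protein genes 1 was higher and 0 lower, and of 14 further TOP genes 8 were lower and 2 higher. The part of the markers was not tested.

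The mRNA of the tagged gene Rpl22, which is no member, was lower in most IPs. Its log2 difference IP minus Input was -0.54 in striatum (adjusted p = 1.2e-09), -0.74 in Cre+ midbrain (adjusted p = 0.0012), -0.07 in Cre- midbrain (adjusted p = 0.87), -0.02 in full-length SNc (adjusted p = 0.96), -0.75 in VTA (adjusted p = 0.034), -1.26 in SNr (adjusted p = 9.0e-04) and -1.04 in midbrain synaptosomes (adjusted p = 5.0e-06). In FASS against small particles it was 0.35 (adjusted p = 0.13).

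The members left out of single tests for low counts were mostly paralogues. Rpl39l and Rps12l1 were not tested in any comparison, and Rpl3l, Rpl10l and Rpl6l were missing from several. Rpl24 and Rpl17 did not pass the filter in the full-length libraries.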

How the data were processed

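The deposited values were whole UMI counts per gene for the 3′-end libraries and whole read counts per gene for the 18 full-length libraries, made by the authors without normalization. Per the submitters' processing notes and the study's methods, UMI libraries were aligned to GRCm38 with STAR, and UMIs within a Hamming distance of 1 were collapsed. Full-length reads lost the first 15 bases of read 2, were cleared of rRNA with Bowtie2 and mapped by STAR 2.6.7a against GRCm38.p6 under a later annotation release, and featureCounts 1.6 counted uniquely mapped reads over exons. The strand setting of that step, and the treatment of UMI reads matching several genes, are not given in the sources used here. Wells and technical repeats known to be of one sample were summed, and 0 columns were left out. RiboTag synaptosome Inputs were not summed, and each was counted as a sample.

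Genes with at least 10 UMIs over a comparison, or passing filterByExpr in full-length libraries, were scaled by DESeq2's median of ratios and tested with edgeR's quasi-likelihood test over all genes, with Benjamini-Hochberg adjustment at 0.05. Standard errors were taken as the size of the log2 fold change over the square root of its F. Normalised counts are counts divided by the size factor, given as a range and median. Age and region-by-fraction terms used F tests over all terms, from which no direction follows. Genes were named as the 3 with the smallest p per direction, the extremes, and a set of stalk, 5S, signaling and paralogue genes, of which some results are not reported here. The members and lists were chosen with earlier results of these data known. Where separate animals are not stated, p-values measure the spread between samples, which may be technical. FASS and small particles of one number in the study's sample sheet come from the same preparation: deviations of same-numbered samples correlated by -0.013 to 0.107 (median 0.015), over 0.1 in 1 of 12 pairs. The scripts were tested on simulated data. Alternatives were DESeq2 1.42.0, TMM or TMMwsp, total counts, size factors without the ribosomal protein genes, no filter, members summed with pseudogene rows, deep samples alone, plates apart, the replicate block and each library left out. Software was R 4.3.3, edgeR 4.0.16 and limma 3.58.1.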

Additional observations from a re-analysis of the deposited data

Results flagged for a closer look

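The member share of counts stood apart from the rest of its group in 3 of 38 groups of 4 to 10 samples, where chance gives about 1 in 20. Replicate 4 of the Cre- P0 striatal Inputs had 7.37% (91270 UMIs), with the others at 6.60 to 6.87%. Replicate 5 of the Cre+ P14 striatal Inputs had 4.03% (54170 UMIs), with the others at 3.22 to 3.37%. Replicate 5 of the Cre- VTA Inputs had 1.86% (3606 UMIs, the lowest total of the midbrain samples), with the others at 5.98 to 7.76%.

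Effects differed between groups, by a test of the difference itself, in 4 comparisons. The IP difference varied with striatal age for 15 of 84 members, where 1220 of 19334 genes passed. It varied with genotype in midbrain for 24 of 84 members (1199 of 14671 genes), a number that depended on the scaling. With midbrain region in full-length libraries it varied for 20 of 83 members (2144 of 17235 genes). For genotype in midbrain synaptosomes 1 of 82 members passed, Rpl31, a share close to that of all genes (134 of 12960). The Rpl31 call was lost under other settings.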

How the results depend on the processing

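Of the counts of members passing a test, 142 values under other settings and 351 with a library left out stayed within 1.5 times the reported count, and 36 and 21 moved further. Without samples under 20000 UMIs, 30 members passed the striatal age-by-fraction test and 27 were lower in Cre- midbrain IPs, and the midbrain synaptosome genotype difference had 0, as it had with no filter on low counts and under total counts. Members with a positive age term numbered 0 for P21 or P90 against P0 within plates and in the fits within BH001 or PB003 and PB008, and 1 with the plate as a covariate. Age by fraction gave 26 under DESeq2, 31 with the plate as a covariate, 27 on BH001 and 4 on PB003 and PB008. Scaling by TMMwsp gave 55 lower in Cre- midbrain IPs, 6 for the midbrain genotype difference, 11 for FASS and 6 for striatal synaptosomes. Total counts gave 44, 10 and 61 for the first 3 of these, and 41, 1 and 7 for full-length SNc, VTA and SNr. Fits of the compared full-length groups alone gave 12 for VTA and 12 for SNr fractions, 3, 3 and 0 for the IP regions, and 6 and 19 for VTA and SNr against SNc Inputs. With pseudogene rows summed in, chosen after seeing the data, VTA gave 10, VTA against SNc IPs 18 and striatal synaptosomes 35. FASS with no filter gave 20. Shares of all genes under these settings are not reported here.

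With single libraries left out, counts ranged from 69 to 71 for striatal fraction, 54 to 56 and 26 to 28 for age, 12 to 17 for age by fraction, 48 to 52 and 20 to 25 for Cre+ midbrain and its genotype difference, 14 to 32 for full-length SNc, 3 to 9 for VTA, 13 to 24 for SNr, 3 to 21, 13 to 27 and 2 to 8 for VTA against SNc, SNr against SNc and SNr against VTA IPs, 3 to 7 for SNr against SNc Inputs, 13 to 26 for region by fraction, 26 to 33 for FASS and 9 to 14 for striatal synaptosomes.

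Directions of named genes that turned were mostly those of the age term. For Rpl31, Rpl5, Rpl27a, Rpl9, Rps6, Rpl11 and Rpl38, in that order, it was -0.31, -0.86, -0.52, -0.32, -0.94, -1.09 and -0.71 with the plate as a covariate, -0.57, -0.85, -0.87, -0.39, -1.04, -1.38 and -0.85 on BH001, and -0.27, -0.95, -0.65, -0.25, -0.83, -1.01 and -0.71 on PB003 and PB008. Rpl5 was -0.22 in Inputs alone and -0.12 with pseudogene rows, Rpl38 -0.062 in Inputs alone, -0.0087 under total counts and -0.027 without the first Cre- P90 IP, and Rps27l 0.52 in IPs alone. The striatal fraction difference of Rpsa was -0.43 under TMMwsp and -0.21 on BH001, and that of Rps27l 0.12 on PB003 and PB008. Rps23 in Cre- midbrain was -0.0079 under TMMwsp, Rps6 was -0.48 for VTA against SNc IPs and -0.58 for region by fraction with pseudogene rows, and Rplp1 in FASS was 0.47 under total counts. The cause of these changes was not tested.

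With the preparations of FASS and small particles as a replicate block, 33 members were higher, and no named gene changed its side of the threshold. No paired analysis was possible for IPs and Inputs because the labels do not tie them to animals. Depth limits the shallow striatal synaptosome, midbrain and FASS samples and the low paralogues, and members with near-identical copies are uncertain. Single ages on plates of their own cannot be separated from those plates.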
